A study of Rattus norvegicus with 2 samples.

Results

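Transcription factors that specify or maintain mast cells and basophils were followed in RBL-2H3, a line grown from a rat basophilic leukemia and used as a model of both cell types. The factors, chosen by name, were Gata1, Gata2, Mitf, Spi1, Tal1, Lmo2, Runx1, Gfi1b, Ikzf1 and Cebpa. Of the 10, 9 were counted among 14913 gene names, each with 20 or more reads in sum, and Cebpa was not analysed here. The series held 1 library of wild-type cells incubated with IgE and 1 library of wild-type cells with no treatment, both from poly(A)-selected RNA. The labels give neither the dose and duration of the IgE incubation nor any antigen, and both libraries come from this single tumour-derived line. The counted reads came to 26268330 in the IgE library and 20917968 in the untreated library. There was no replicate library, so every difference below is between 2 libraries and carries no replicate check. The intervals given are exact Clopper-Pearson 95% intervals of the read ratio and cover counting error only. A difference in transcripts per cell cannot be told apart from a difference in the mix of cell states.

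These factors work as a network. GATA2 and GATA1 are zinc-finger proteins that bind GATA letters in DNA, and in mice GATA2 is required for mast cells and basophils while GATA1 acts in mast cell maturation as well as in red cells. MITF, a basic helix-loop-helix leucine zipper protein, and PU.1, the ETS factor encoded by Spi1, act with the GATA factors on mast cell genes such as Kit, the protease genes and the subunits of the IgE receptor. TAL1 binds E-boxes with E proteins and is joined to GATA factors through LMO2 and LDB1. RUNX1 binds DNA with its partner CBFB, IKZF1 is the Ikaros zinc-finger protein of lymphoid and myeloid cells, and GFI1B is a repressor that recruits the histone demethylase LSD1, the product of Kdm1a. C/EBPalpha favours the basophil over the mast cell fate in mouse progenitors.

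Promoter windows of 4 of the factors are shown, chosen for their measured difference or their number of reads. Gfi1b had the lowest log2 fold, Gata1 the highest, Gata2 the most reads, and Tal1 the log2 fold nearest to 0. The windows run 5′ to 3′ from 250 bases before to 50 bases after 1 start site per gene in the RefSeq table for the rat build GRCr8. That site need not be the first of the gene. It lay inside the RefSeq span by 8346 bases for Gata1, 4780 for Gata2, 1371 for Tal1 and 62 for Gfi1b, and by 138975 for Runx1, whose window is counted below. They lie at chr3:32350852-32351151 (minus strand) for Gfi1b, chrX:17201387-17201686 (plus strand) for Gata1, chr4:122216031-122216330 (plus strand) for Gata2 and chr5:133824214-133824513 (plus strand) for Tal1. Capitals mark the GATA hexamers (A or T, then GATA, then A or G), the E-box CANNTG, the RUNX letters TGTGGT, the ETS letters GAGGAA and the C/EBP letters TTGCNNAA, searched on both strands.
Gfi1b: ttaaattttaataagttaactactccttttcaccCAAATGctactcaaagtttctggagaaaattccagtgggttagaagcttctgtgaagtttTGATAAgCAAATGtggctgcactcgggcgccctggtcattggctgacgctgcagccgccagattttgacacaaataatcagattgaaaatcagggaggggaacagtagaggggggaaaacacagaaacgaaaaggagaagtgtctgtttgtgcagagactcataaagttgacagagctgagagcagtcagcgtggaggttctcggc
Gata1: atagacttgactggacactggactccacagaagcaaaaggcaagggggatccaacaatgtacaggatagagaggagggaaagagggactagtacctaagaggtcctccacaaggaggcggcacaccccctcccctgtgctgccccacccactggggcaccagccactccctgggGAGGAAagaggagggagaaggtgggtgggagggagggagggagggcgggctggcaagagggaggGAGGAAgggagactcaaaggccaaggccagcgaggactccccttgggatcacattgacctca
Gata2: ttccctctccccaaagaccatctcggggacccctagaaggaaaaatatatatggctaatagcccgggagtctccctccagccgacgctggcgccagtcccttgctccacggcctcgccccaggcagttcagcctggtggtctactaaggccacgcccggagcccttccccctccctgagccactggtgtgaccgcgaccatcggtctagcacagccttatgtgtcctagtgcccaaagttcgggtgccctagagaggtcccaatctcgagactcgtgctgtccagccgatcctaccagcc
Tal1: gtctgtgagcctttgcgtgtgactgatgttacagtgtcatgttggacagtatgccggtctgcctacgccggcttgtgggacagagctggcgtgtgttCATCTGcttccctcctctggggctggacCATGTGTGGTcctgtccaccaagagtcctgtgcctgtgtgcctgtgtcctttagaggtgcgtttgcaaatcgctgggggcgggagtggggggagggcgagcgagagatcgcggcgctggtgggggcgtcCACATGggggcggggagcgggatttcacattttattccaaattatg

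RefSeq promoter windows were matched for 7 of the 9 counted factors, the others being Spi1 and Lmo2. A GATA hexamer was found in 1 of the 7 windows, against 30.3% of 33465 rat promoter windows of the same length. That window was the one of Gfi1b, where TGATAA stood at bases -156 to -151 from the start site and the E-box CAAATG followed at -149 to -144. An E-box was found in 3 of 7 windows, against 72.1% of all windows. The RUNX letters were found in 2 of 7, those of Mitf and Tal1, against 17.3%, and in the Tal1 window they overlapped the E-box CATGTG. The ETS letters were found in 2 of 7, with 2 matches for Gata1 and 1 for Ikzf1, against 27.6%. The C/EBP letters stood in 1 of 7, that of Mitf, against 10.6%. The composite of CTG and GATA with 7 or 8 bases between them, known from sites of the TAL1 and GATA1 complex, was in 0 of 7 windows and in 5.20% of all windows. The window at the internal Gata2 start site held none of the letters searched. Other start sites of these genes were not searched, and no binding was measured.

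**Figure D1:**
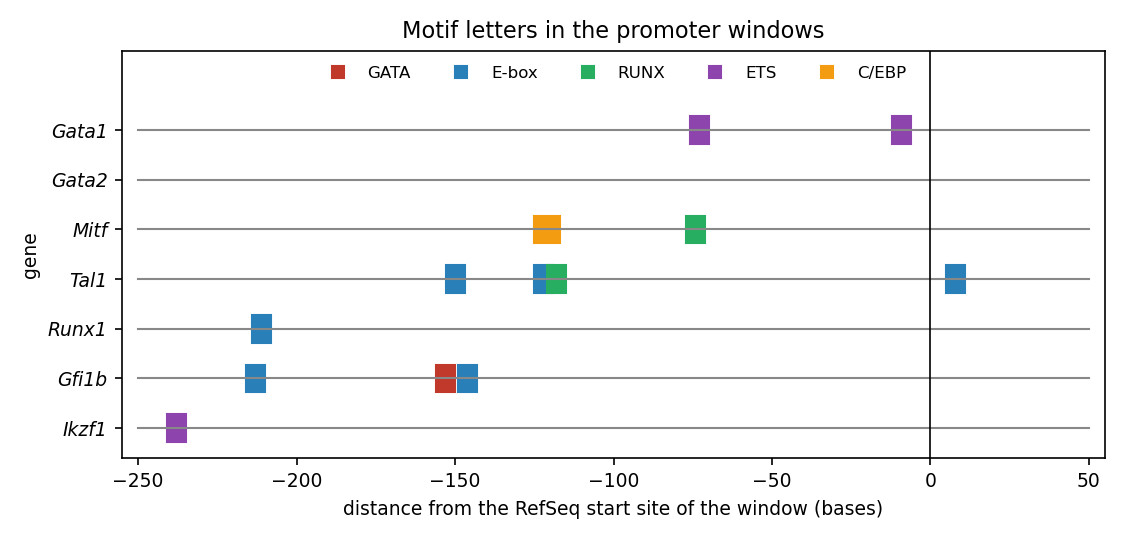
Motif letters in the promoter windows of the 7 counted factors with a RefSeq window. The x axis is the distance in bases from the start site of the window (vertical line), which for Gata1, Gata2, Tal1 and Runx1 lies well inside the gene, and coloured blocks are matches to GATA, E-box, RUNX, ETS and C/EBP letters on either strand. The only GATA match lies in the Gfi1b window, and the window at the internal Gata2 start site is empty.

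The cells carried transcripts of their labelled type. Of 13 mast cell and basophil markers, 10 were counted, and Mcpt8, Tpsab1 and Tpsb2 were not among them. The 10 summed to 4440 CPM (IgE) and 4094 CPM (untreated), where CPM are reads scaled to a common library size with edgeR's TMM factors. Ms4a2, Kit, Cpa3 and Fcer1a made up most of these sums, while Cma1 was at 7.22 CPM (IgE) and 5.96 CPM (untreated). Of 11 erythroid and megakaryocyte markers, lineages that share GATA1, TAL1 and GFI1B, 8 were counted, with sums of 247.2 CPM (IgE) and 202.3 CPM (untreated). Most of that came from the platelet chemokine gene Pf4, at 168.1 CPM (IgE) and 127.6 CPM (untreated). The erythroid factor Klf1 had 72 reads (IgE) and 46 reads (untreated). Of 12 lymphocyte markers 4 were counted, at 18.4 CPM (IgE) and 17.1 CPM (untreated) in sum, and of 16 macrophage and neutrophil markers 5, at 4.70 CPM (IgE) and 6.72 CPM (untreated), with Camp at 0 reads in both libraries. Of 12 fibroblast and epithelial markers 3 were counted, at 400.5 CPM (IgE) and 426.2 CPM (untreated), nearly all from Col3a1 and Thy1. The part of these transcripts in the differences below was not tested.

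None of the 9 factors differed by 2-fold or more between the libraries. The background is 318 of 12102 genes with 20 or more reads, which is 2.63%, at least 2-fold apart in either direction (1.33% higher and 1.30% lower), and 0 of 9 is near that share. At a 1.5-fold rule 0 of the 9 were called, against a background of 7.19%. The log2 folds of IgE over untreated ran from -0.57 for Gfi1b to 0.10 for Gata1, with 7 below 0 and 2 above. Their median was -0.07 and their mean -0.11, beside a median of 0.00 over all genes, of which 48.9% were below 0. The counting interval excluded 0 for 6 of the 9, against 38.5% of all genes. It lay below 0 for 5 (Gata2, Runx1, Mitf, Lmo2 and Gfi1b), against 18.6%, and above 0 for 1 (Gata1), against 2415 of the 12102 genes. Such intervals narrow with the number of reads. Among the 7 factors with 2000 or more reads, 3 intervals lay below 0 and 1 above, against 27.4% and 26.9% of the 5079 genes at that depth. Of the 9, 0 stood among the 451 names the authors selected. The full set held 14913 names, so a selection this small decides nothing about 9 genes. The authors' p-values were returned by edgeR's exact test with an assumed dispersion of 0.01. With 1 library per group they carry no replicate check.

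**Figure D2:**
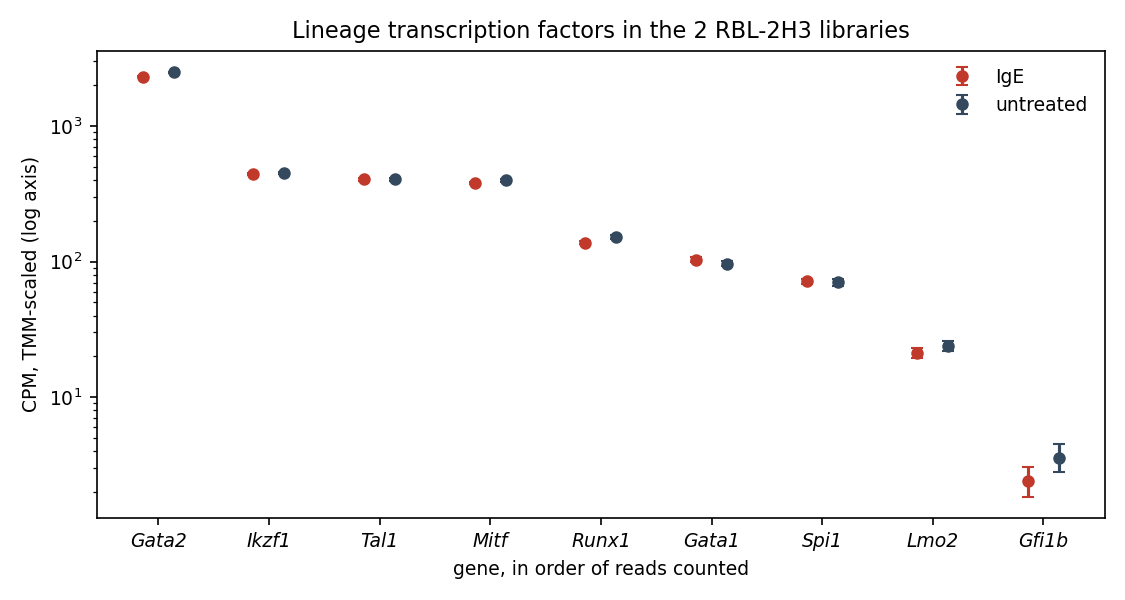
Level of the 9 counted factors in each library. The y axis is CPM on a log scale, red points are the IgE library, dark points the untreated library, bars are exact Poisson 95% intervals of the counts, and genes stand in order of reads counted, which also depends on transcript length. The points of a gene lie close together in every case, with the widest gap for Gfi1b at 2.41 CPM (IgE) and 3.57 CPM (untreated).

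Among the GATA factors, Gata2 had 60311 reads in the IgE library and 52028 in the untreated library, or 2303 CPM (IgE) and 2479 CPM (untreated). The log2 fold was -0.11, with a counting interval of -0.12 to -0.09. With this many reads the interval is narrow, and the difference is a 0.929-fold level. Gata1 had 2704 reads (IgE) and 2020 reads (untreated), or 103.3 CPM (IgE) and 96.3 CPM (untreated). Its log2 fold was 0.10, with an interval of 0.02 to 0.19. The pair therefore stood on opposite sides of 0. For each Gata1 read there were 22.3 Gata2 reads in the IgE library and 25.8 in the untreated library. The log2 fold of Gata1 minus that of Gata2 was 0.21, with an exact counting interval of 0.12 to 0.29. Single genes with 2000 or more reads had an SD of 0.14 in log2 fold. No background of other gene pairs was made, so whether this gap is unusual was not tested. Gata3, a relative known from T cells and innate lymphoid cells, had 1561 reads (IgE) and 1566 reads (untreated), with a log2 fold of -0.32 (-0.43 to -0.22). Its log2 fold minus that of Gata2 was -0.22 (-0.32 to -0.11), a pair chosen after its values were seen.

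Mitf and Spi1, which act beside the GATA factors on mast cell genes, differed little between the libraries. Mitf had 9908 reads (IgE) and 8338 reads (untreated), or 378.4 CPM (IgE) and 397.3 CPM (untreated), with a log2 fold of -0.07 (-0.11 to -0.03). Spi1 had 1871 reads (IgE) and 1472 reads (untreated), or 71.5 CPM (IgE) and 70.1 CPM (untreated). Its log2 fold of 0.03 had an interval of -0.07 to 0.13, which spans 0. PU.1 and the GATA factors are known to oppose each other in progenitors, so their reads were also set against each other. Gata1 minus Spi1, in log2 fold, was 0.07 (-0.06 to 0.21), an interval that spans 0. For Gata2 minus Spi1 it was -0.13 (-0.23 to -0.03). Of the MiT relatives of Mitf, Tfe3 was counted, at a log2 fold of -0.06 (-0.23 to 0.10). Spib, a relative of Spi1, had 0 reads in both libraries, which allows up to 0.115 CPM (IgE) and 0.143 CPM (untreated) at a floor of 3 reads.

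For the TAL1 complex, Tal1 had 10557 reads (IgE) and 8491 reads (untreated), or 403.2 CPM (IgE) and 404.6 CPM (untreated). Its log2 fold was -0.01 (-0.05 to 0.04), the nearest to 0 of the 9. Lmo2, the LIM-domain bridge, had 552 reads (IgE) and 503 reads (untreated), or 21.1 CPM (IgE) and 24.0 CPM (untreated), with a log2 fold of -0.19 (-0.36 to -0.01). Its interval ends just below 0. Tal1 minus Lmo2, in log2 fold, was 0.18, with an interval of -0.002 to 0.36 that reaches 0. Ldb1, which joins such complexes into larger assemblies, stood at -0.08 (-0.16 to 0.01), and Lyl1, the closest relative of TAL1, at -0.11 (-0.28 to 0.05). The E proteins that pair with TAL1 all lay below 0, with intervals that exclude it. Intervals below 0 were held by 18.6% of all genes, and by 27.4% of those with 2000 or more reads. Tcf4 and Tcf12 lay inside the 5th to 95th percentile of genes of their read ranges, and Tcf3 lay below it. Tcf3 was at -0.23 (-0.32 to -0.15), Tcf4 at -0.23 (-0.37 to -0.09) and Tcf12 at -0.14 (-0.22 to -0.05). Cbfa2t3, a corepressor found in TAL1 complexes, was at -0.23 (-0.34 to -0.12).

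Runx1 had 3617 reads (IgE) and 3189 reads (untreated), or 138.1 CPM (IgE) and 152.0 CPM (untreated), with a log2 fold of -0.14 (-0.21 to -0.07). Its DNA-binding partner gene Cbfb lay on the other side of 0, at 321.2 CPM (IgE) and 291.2 CPM (untreated), a log2 fold of 0.14 (0.09 to 0.19). Runx3 was at -0.10 (-0.15 to -0.04), and Runx2, with 67 reads (IgE) and 51 reads (untreated), at 0.07 (-0.47 to 0.63). Ikzf1 had 11585 reads (IgE) and 9460 reads (untreated), or 442.4 CPM (IgE) and 450.8 CPM (untreated), and its log2 fold of -0.03 had an interval of -0.07 to 0.01. Its relatives differed in sign. Ikzf4, which encodes Eos, stood at 702.9 CPM (IgE) and 618.2 CPM (untreated), a log2 fold of 0.19 (0.15 to 0.22), whereas Ikzf2 was at -0.14 (-0.20 to -0.07) and Ikzf5 at -0.16 (-0.26 to -0.06). The log2 fold of Ikzf4 minus that of Ikzf1 was 0.21 (0.16 to 0.26), a pair chosen after its values were seen.

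Gfi1b was the factor with the fewest reads and the largest difference. It had 63 reads in the IgE library and 75 in the untreated library, or 2.41 CPM (IgE) and 3.57 CPM (untreated). The log2 fold was -0.57, a 0.675-fold level, with a counting interval of -1.08 to -0.07. In the authors' deposited table its log2 fold was -0.58 with an unadjusted p of 0.079. Among the 736 genes with 100 to under 200 reads, the 5th to 95th percentile of the log2 fold ran from -0.71 to 0.61, so Gfi1b lay inside the range of genes of its depth. Its paralog Gfi1 was counted far more often, with 2736 reads (IgE) and 2312 reads (untreated), and a log2 fold of -0.08 (-0.16 to 0.00). The log2 fold of Gfi1b minus that of Gfi1 was -0.49 (-1.01 to 0.02), a pair chosen after its values were seen, and the interval spans 0. Kdm1a, the demethylase gene, was at 0.13 (0.04 to 0.22), and Rcor1, which encodes the CoREST scaffold of the same complex, at 0.01 (-0.04 to 0.06).

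**Figure D3:**
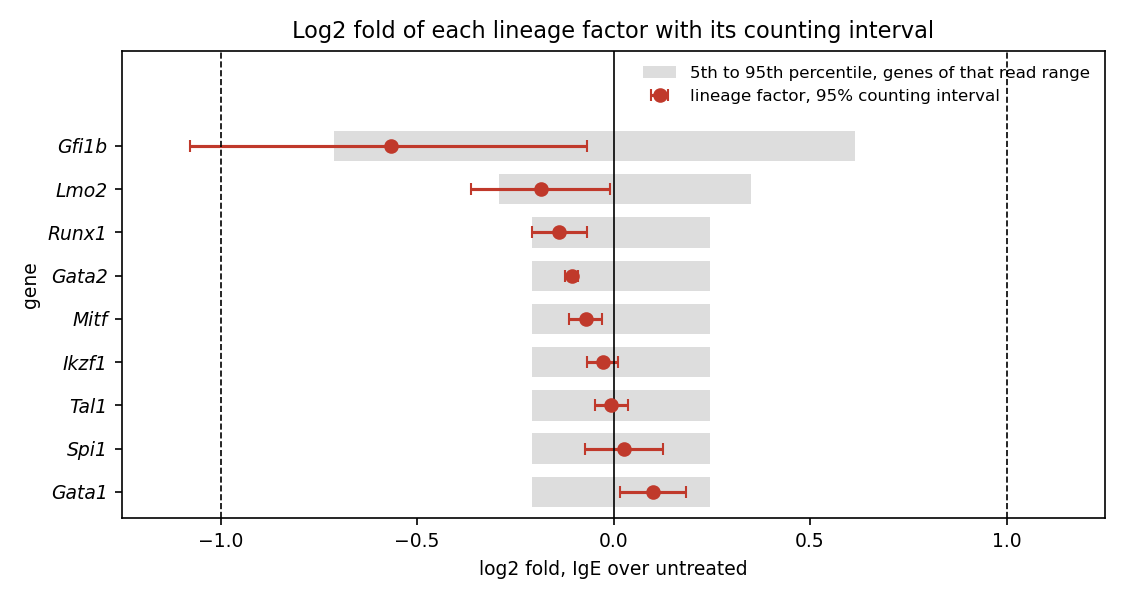
Log2 fold of IgE over untreated for each factor (points, with the 95% counting interval as bars). Grey blocks show the 5th to 95th percentile of genes of the same read range (100 to under 200, 500 to under 2000, or 2000 and more reads), the solid line is 0 and dashed lines mark 2-fold. All 9 points lie within the grey block of their read range, and only the interval of Gfi1b, which reaches -1.08, touches a 2-fold line.

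All of the remaining factors also lay inside the range of genes of similar depth. That range was -0.29 to 0.35 for the 3290 genes with 500 to under 2000 reads, where Lmo2 falls, and -0.21 to 0.25 for the 5079 genes with 2000 or more reads, which hold the other 7. The SD of the log2 fold in the deepest range was 0.14. Summed over the 9 factors the level was 3864 CPM (IgE) and 4078 CPM (untreated), most of it from Gata2. Transcripts on the other side of 0 were those of the cytosolic ribosomal proteins, where 64 of 65 genes were above 0 with a median log2 fold of 0.29, and of the mitochondrial genome, where 13 of 13 were above 0 with a median of 0.16. Over all genes 48.9% were below 0. The summed ribosomal protein level was 33470 CPM (IgE) and 28450 CPM (untreated), and its part in the small negative folds of the factors was not tested.

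**Figure D4:**
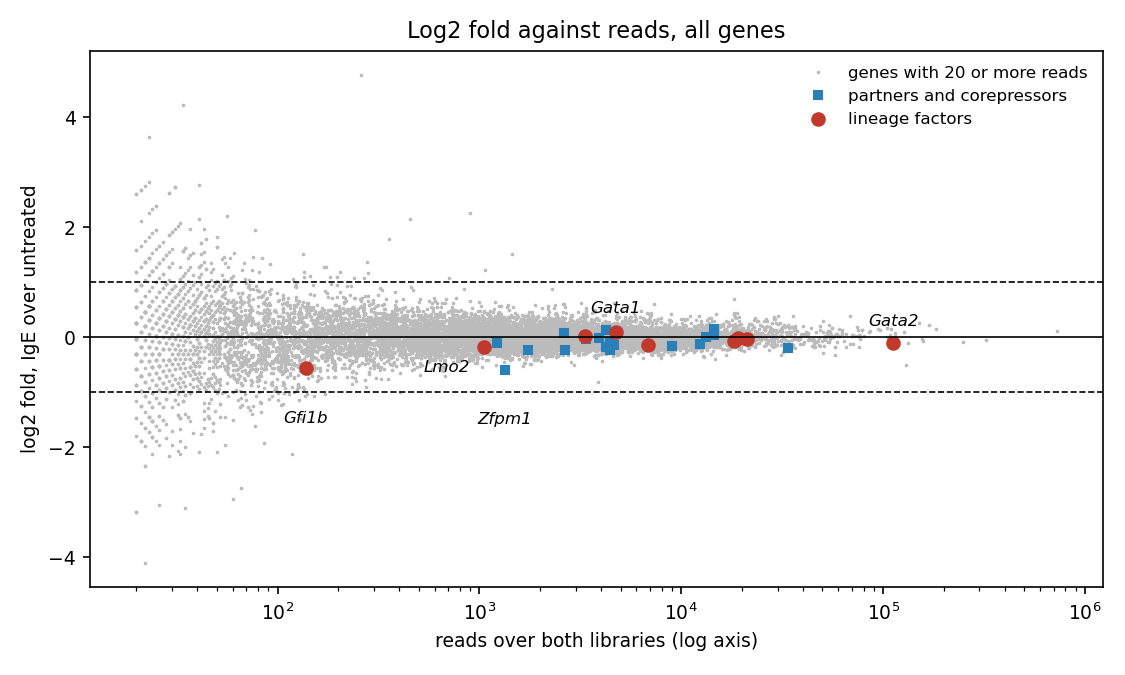
Log2 fold of IgE over untreated against reads over both libraries (log axis) for the 12102 genes with 20 or more reads (grey), with the 9 lineage factors in red and 18 partners and corepressors in blue. Dashed lines mark 2-fold. The red points lie between -0.57 and 0.10, and Zfpm1, at -0.60, lies below -0.29, the 5th percentile of genes of its depth.

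The binding partners and corepressors mostly lay below 0, as the factors did. Both lists were chosen with earlier results of these data known, and the shared direction was not tested. Of 20 listed partners and corepressors 18 were counted, 13 below 0 and 5 above, where 48.9% of all genes were below 0. Of the 18, 0 were at least 2-fold apart, near the background of 2.63% of all genes. Their median log2 fold was -0.12, beside 0.00 over all genes. The counting interval lay below 0 for 9 of the 18 and above 0 for 2. Over all genes it lay below 0 for 18.6% and above 0 for 2415 of the 12102. Of the 15 partners with 2000 or more reads, 7 intervals lay below 0 and 2 above, against 27.4% and 26.9% of all genes at that depth. The lowest was Zfpm1, which encodes FOG1, the cofactor that binds GATA1 and GATA2 and is kept low in mouse mast cells. Zfpm1 had 605 reads (IgE) and 735 reads (untreated), or 23.1 CPM (IgE) and 35.0 CPM (untreated), and its log2 fold of -0.60 had an interval of -0.76 to -0.44. This is short of 2-fold. Of the 18 partners 3 lay below the 5th percentile of genes of their read range (Zfpm1, Tcf3 and Cbfa2t3) and 0 above the 95th, ranges that leave out 10% of all genes by construction. Such genes were not particular to the partners. In the other lists described below, at 2000 or more reads (range -0.21 to 0.25), Gata3 (-0.32), Kmt2a (-0.23) and Mcpt1 (-0.22) lay below it. Nfil3 (0.41), Fcer1a (0.34), Id2 (0.29) and Cpa3 (0.27) lay above it. Among the coactivators and remodellers, Ep300 was at -0.15 (-0.21 to -0.09), Crebbp at -0.18 (-0.26 to -0.09) and Chd4 at -0.19 (-0.22 to -0.16). Hdac1 was at 0.04 (-0.01 to 0.08) and Hdac2 at 0.08 (-0.03 to 0.19). Fli1, an ETS factor of blood and endothelial cells, was at -0.13 (-0.18 to -0.08).

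Of 24 family relatives 12 were counted and 11 passed the minimum, 6 below 0 and 5 above. Of these 11, 0 were at least 2-fold apart, near the background of 2.63% of all genes. Their median was -0.06 and their mean 0.01, of opposite sign. The highest was Cebpd, a C/EBP relative, which rested on 28 reads (IgE) and 15 reads (untreated) and had a log2 fold of 0.57 (-0.37 to 1.59). Cebpg, the other C/EBP gene counted, was at 0.09 (-0.01 to 0.19). The lowest were Gata3 and Ikzf5, given above.

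Among other regulators of mast cell, basophil and progenitor development, 19 of 22 were counted and 16 passed the minimum, with 8 below 0 and 8 above. Of these 16, 0 were at least 2-fold apart, near the background of 2.63% of all genes. The median was -0.0009 and the mean 0.07. The highest were Irf2, an interferon regulatory factor, with 298 reads (IgE) and 165 reads (untreated) and a log2 fold of 0.53 (0.25 to 0.82), and Nfil3, a basic leucine zipper factor of innate lymphocyte development, with 1770 reads (IgE) and 1071 reads (untreated) and 0.41 (0.30 to 0.52). Id2, whose product binds E proteins and blocks their DNA binding, stood at 96.4 CPM (IgE) and 79.0 CPM (untreated), a log2 fold of 0.29 (0.20 to 0.38). The lowest were the methyltransferase gene Kmt2a at -0.23 (-0.29 to -0.16) and Stat5b, which transmits cytokine signals in mast cells, at -0.16 (-0.21 to -0.11). Bhlhe40 stood at 484.9 CPM (IgE) and 501.9 CPM (untreated), and the progenitor factor Myb at 126.1 CPM (IgE) and 126.0 CPM (untreated). Hes1, Id1 and Mecom had under 20 reads, with 0 reads (IgE) and 8 reads (untreated) for Hes1.

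Of 29 mast cell and basophil genes that these factors are known to control, 21 were counted and 20 passed the minimum, with 14 above 0, 6 below and a median log2 fold of 0.02. None of the 20 was at least 2-fold apart, near the background of 2.63% of all genes. Kit, the stem cell factor receptor gene and a target of GATA2 and MITF, was at 1136 CPM (IgE) and 1168 CPM (untreated), a log2 fold of -0.04 (-0.06 to -0.02). Srgn, which encodes the granule proteoglycan serglycin, was at 1643 CPM (IgE) and 1509 CPM (untreated), a log2 fold of 0.12 (0.10 to 0.14). Ms4a2, an IgE receptor subunit gene, was at 1374.5 CPM (IgE) and 1252.4 CPM (untreated), a log2 fold of 0.13 (0.11 to 0.16). The protease gene Mcpt9 at 0.34 (0.18 to 0.51) and the IgE-binding receptor chain Fcer1a at 0.34 (0.30 to 0.37) were highest, and Mcpt1 at -0.22 (-0.33 to -0.12) and Rab27b at -0.15 (-0.23 to -0.07) lowest. Il1rl1, the interleukin 33 receptor gene, stood at 1085 CPM (IgE) and 1080 CPM (untreated), and Slc18a2, which loads histamine into granules, at 425.4 CPM (IgE) and 423.3 CPM (untreated).

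**Figure D5:**
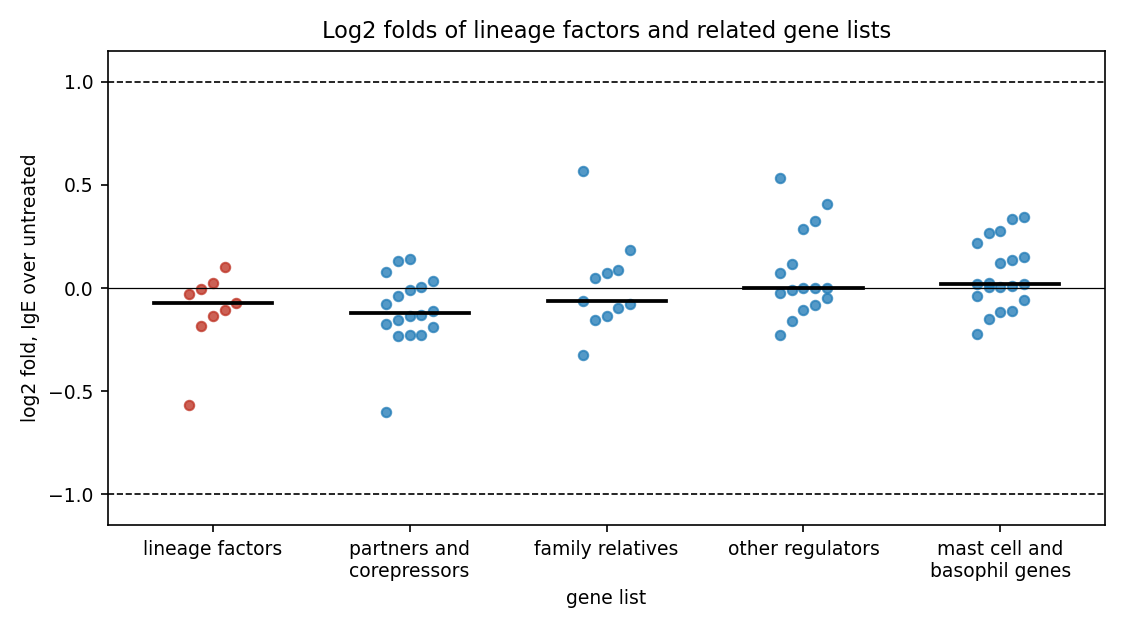
Log2 fold of IgE over untreated for the genes of 5 lists with 20 or more reads (points) and the list medians (black bars). The solid line is 0 and dashed lines mark 2-fold. Medians run from -0.12 for partners and corepressors to 0.02 for mast cell and basophil genes, with the factors at -0.07, and every point lies between the dashed lines.

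By the distance between the 2 log2 CPM values, which are not divided by transcript length, the nearest of 65 list genes was Cebpg for Spi1 (0.043), Hdc for Mitf (0.087), Slc18a2 for both Tal1 (0.101) and Ikzf1 (0.107), and Ikzf2 for Runx1 (0.102). Tcf12 was nearest to Gata1 (0.169), Tfe3 to Lmo2 (0.268), Runx2 to Gfi1b (0.559) and Srgn to Gata2 (0.867). The factors themselves were not ordered by level, because reads per gene depend on transcript length and no lengths were used here.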

How the data were processed

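The deposited values were raw read counts per gene name, beside a log2 fold, a p-value and its adjusted form that the authors computed. Build rn6, HISAT2 2.1.0, fastp 0.23.0 and DESeq2 1.18.1 appear, with no role, in the submitters' processing notes. Which tool counted the reads, and on which strand, is not given in the sources used here. Spans of 4 counted factors in RefSeq (Gata1, Gata2, Spi1 and Lmo2) overlap a long noncoding RNA gene, whose reads may not be told apart. Of 16990 rows, 2077 identical repeats were dropped, which left 14913 names, of which 11267 matched a RefSeq symbol. A dispersion fixed at 0.01, an assumed value, in edgeR's exact test returned the p-values of the authors' deposited table with a largest difference of 3.47e-08.

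With 1 library per group no test across samples was made. CPM and log2 folds came from edgeR 4.0.16 (R 4.3.3) with TMM scaling (factors 0.997 for IgE and 1.00 for untreated), a prior of 0.5 counts and a minimum of 20 reads over both libraries. Differences between 2 genes' folds carry an exact conditional 95% interval of the odds ratio. It covers counting error only, and no background of other gene pairs was made. The calculation was tested on simulated data. Genes named outside the 9 factors were the 2 highest, 2 lowest and 2 most abundant of each list, the nearest list gene of each factor, and further list genes chosen for their role or after their values were seen. The factors and lists were chosen with earlier results of these data known. A planned order of levels per coding length was not made, since no lengths were used here. Promoter windows are RefSeq's, build GRCr8, which differs from the build of the counts.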

Additional observations from a re-analysis of the deposited data

How the results depend on the processing

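All 36 alternative folds of the 9 factors (library totals, DESeq2 1.42.0 size factors, a prior of 5 counts, repeated rows kept) stayed within the counting interval, and 0 changed sign. These alternatives could move the folds little. The scalings and the kept repeats shift all genes by nearly the same small amount, and the prior hardly acts on deeply counted genes. Gfi1b ranged from -0.58 to -0.53 and Gata2 from -0.12 to -0.11. The 31 alternative medians of the factors and of the 4 related lists stayed within the list intervals (from the median lower to the median upper bound of the genes of a list). Such bounds come from single genes and are not an interval of the list median, so staying inside them decides little. The median of the factors was -0.05 without Gfi1b. Under each scaling, prior, minimum and the 1.5-fold rule, 0 factors were called in either direction. The changes of minimum could not alter this, since each factor had 138 or more reads over both libraries. Asking only that the counting interval exclude no change, an alternative chosen after seeing the data, gave 1 higher and 5 lower. The counts over all genes, 161 higher and 157 lower, were 104 and 99 with a prior of 5, 855 and 875 with no minimum, 21 and 15 with a minimum of 100 reads, and 443 and 427 at 1.5-fold. The prior and the minimum act on weakly expressed genes by construction, and the 1.5-fold rule on all genes. No paired analysis was possible because the groups hold 1 library apiece, and for that reason none could be left out. Depth limits Gfi1b most, whose interval of -1.08 to -0.07 is the widest of the 9.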
